A study of Mus musculus with 9 samples.

Results

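Prominin-1-positive cells, taken from mouse kidney cortex and labelled by the submitters as proximal tubule, were examined for transcripts of cells that do not belong to the tubule. The 37 marker genes were chosen by name, with earlier results of these data known, as markers of podocytes, endothelium, fibroblasts, smooth muscle and renin cells, macrophages and other leukocytes, and antigen-presenting cells. All 37 were found, each on a single line, among the 52405 entries of the table. The mice were C57BL/6, with no transgene or allele named in the labels. They formed 3 groups of 3 libraries, each library called a biological replicate: sham-operated adult males, females sham-operated at postnatal day 21 and females ovariectomized at postnatal day 21. Every animal had thus been operated on, and the labels used here do not spell out the day of surgery in males or the ages at which kidneys were taken. The sample descriptions hold short codes that may record them, and their meaning was not assumed. Cells were released with a tissue dissociator, labelled with an antibody against prominin-1 and held on a magnetic column, so the fraction rests on 1 positive selection.

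A glomerulus is a tuft of capillaries whose endothelium carries open pores, held together by mesangial cells and covered by podocytes, whose interlocking foot processes form the filter. Outside it, peritubular capillaries run between the tubules, smooth muscle surrounds the arterioles, and renin is made in the wall of the arteriole that enters the glomerulus. Fibroblasts and resident macrophages lie in the interstitium. None of these cells is part of the tubule wall, so their transcripts in a tubule fraction are commonly read as a measure of its purity.

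Proximal tubule genes were present, as were genes of later tubule segments. All 12 genes of a proximal tubule list passed the filter on low values, and the phosphate transporter gene Slc34a1 was at 2549 to 3455 FPKM (median 3250.2). All 9 thick ascending limb and all 8 distal convoluted tubule genes listed also passed, so the filter does not test the proximal label. The lists, unequal in length, summed to 7128 to 11033.5 FPKM per library for the proximal tubule. The sums were 1060 to 2683 for the thick ascending limb and 491 to 1406 for the distal convoluted tubule. Levels are given as FPKM, fragments scaled to transcript length and to sequencing depth, a unit in which genes can be compared with one another. The depth estimated from the steps between low values was 21250000 to 28750000 reads per library. Of the 37 markers, 29 reached 1 FPKM in at least 3 of the 9 libraries and were tested, and 8 did not. The libraries were not alike in these markers: sham female library 3 was the lowest of the 9 for all 5 podocyte and all 10 endothelial genes, and sham male library 2 was the highest for all 10 endothelial genes. Fold changes that depend most on these libraries are also given without them. In bulk RNA, fewer cells of a type and less RNA per cell cannot be told apart.

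Across the groups the markers fell into 3 patterns. Podocyte, endothelial and mesangial-type genes were present but mostly differed several-fold between libraries, smooth muscle and MHC class II genes were present at steadier levels, and most macrophage and interstitial collagen genes stayed under 1 FPKM. No marker passed the test in any of the 3 comparisons. In sham females against sham males 0 of 29 tested markers were called, against a background of 9.15% of all 13160 genes tested. In ovariectomized females against sham males 0 of 29 were called, against 11.8% of all genes, and in ovariectomized against sham females 0 of 29, against 0.0076%. These calls are from limma on log2(FPKM + 1) at a Benjamini-Hochberg adjusted p under 0.05 over all genes tested. At an unadjusted p under 0.05 the counts were 2, 2 and 0 of 29 in the same order, where all genes gave 26.6%, 28.6% and 6.29%.

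**Figure D1:**
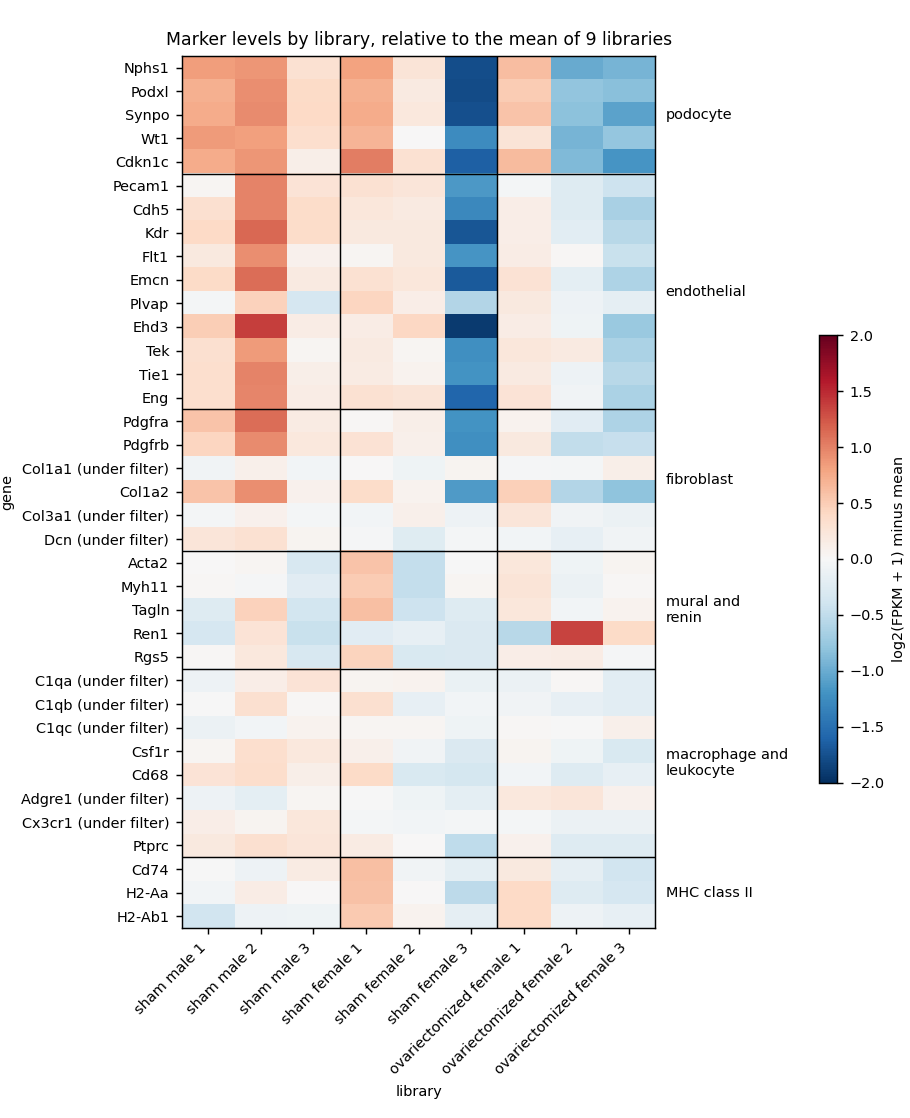
Level of each of the 37 markers (rows, grouped by role) in each of the 9 libraries (columns), as log2(FPKM + 1) minus the gene's mean over the libraries, so red is above and blue below that mean. Sham female 3 is blue through the podocyte, endothelial and upper fibroblast rows, sham male 2 is red through the endothelial rows, and the smooth muscle and MHC class II rows are pale in both.

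Podocyte genes included the marker with the highest level of all 37, Podxl. Podxl encodes podocalyxin, the charged sialomucin that keeps podocyte foot processes apart and that endothelium also carries (ENSMUSG00000025608, chromosome 6, 31519488 to 31563981, mouse build GRCm38). Its level was 121, 141 and 96.7 FPKM among sham males, 121, 84.1 and 20.8 among sham females and 106, 42.3 and 41.2 among ovariectomized females. Its mean over the 9 libraries exceeded that of 92.6% of all genes tested. Synpo encodes synaptopodin, an actin-binding protein of the foot process (ENSMUSG00000043079, chromosome 18, 60593973 to 60660142). It was at 42.9, 49.8 and 33.7 FPKM among sham males, 43, 29.5 and 6.81 among sham females and 38.1, 13.9 and 11.6 among ovariectomized females. In both genes the 3 males and sham female 1 and 2 and ovariectomized female 1 lay high, while sham female 3 and ovariectomized female 2 and 3 lay low, so the groups overlapped. Nphs1, the gene of nephrin, the backbone of the slit diaphragm between foot processes, ranged over 3.17 to 25.4 FPKM (median 16.7), Wt1, a transcription factor gene that keeps podocytes differentiated, over 2.03 to 12.1 FPKM (median 7.65), and Cdkn1c, the gene of the cell cycle inhibitor p57 that marks mature podocytes, over 5.52 to 39.9 FPKM (median 23.8).

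The 5 podocyte genes kept nearly fixed proportions while their levels differed between libraries. From its lowest to its highest library Podxl spanned 6.8-fold, Synpo 7.31-fold and Nphs1 8.0-fold. The ratio of Synpo to Podxl over the same libraries spanned 1.28-fold, and that of Nphs1 to Podxl 1.4-fold. The ratio of Cdkn1c to Podxl was the least steady of those to Podxl, at 1.72-fold. The summed FPKM of the 5 genes was 234, 264 and 176 among sham males, 239, 159.9 and 38.3 among sham females and 203, 75.1 and 70.4 among ovariectomized females. A further list of 13 podocyte genes had sham female 3 as its lowest library in 11 of 13 genes. In that list 0 of 13 genes were called in any comparison. Its exceptions in spread were genes such as Clic5, a chloride channel-like gene, at 25.6 to 36.1 FPKM (median 32.7), and Mpp5, a polarity gene that tubules also use, at 13.6 to 19.9 FPKM (median 17.8), both named after their values were seen.

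The fitted podocyte differences were sizeable, but smaller than the spread between replicates allowed to be called. Podxl averaged 119.8 ± 22.4 FPKM in sham males (mean ± SD, n = 3), 75.5 ± 50.9 in sham females and 63.2 ± 37.2 in ovariectomized females. Its log2 fold change was -0.97 in sham females against sham males (95% interval -2.30 to 0.37, limma adjusted p = 0.323). Against the same males the ovariectomized females were at -1.04 (interval -2.38 to 0.30, adjusted p = 0.278). Between the female groups it was -0.07 (interval -1.41 to 1.26, adjusted p = 0.999), and -0.81 without sham female 3. Without sham female library 3 the first of these was -0.23 (adjusted p = 0.779). Wt1 had the smallest adjusted p of the podocyte genes, at 0.145 for ovariectomized females against sham males (log2 fold change -1.15). The 3 ovariectomized libraries of Wt1, at 7.65, 2.81 and 3.23 FPKM, lay below the 3 male ones, at 12.1, 11.7 and 8.1. Over the 5 podocyte genes the median log2 fold change was -0.91 in sham females and -1.11 in ovariectomized females against sham males, where the median of all genes tested was -0.09 in both. Ovariectomized against sham females gave a median of -0.20, against 0.01 for all genes. Without sham female 3 the podocyte median was -0.22 in sham females against sham males and -0.91 in ovariectomized against sham females. The first 2 comparisons share the sham male libraries.

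Prom1, the gene of the protein used to hold the cells, differed between the groups. It was at 42.1, 39.4 and 54.6 FPKM among sham males, 90.4, 76.8 and 129 among sham females and 68.5, 76.1 and 78.5 among ovariectomized females and was called higher in sham females than in sham males (log2 fold change 1.08, limma adjusted p = 0.00671), as it was in ovariectomized females (log2 fold change 0.71, limma adjusted p = 0.0357). Sham female 3, lowest in podocyte and endothelial genes, was highest in Prom1. Its part in the podocyte and endothelial levels was not tested.

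**Figure D2:**
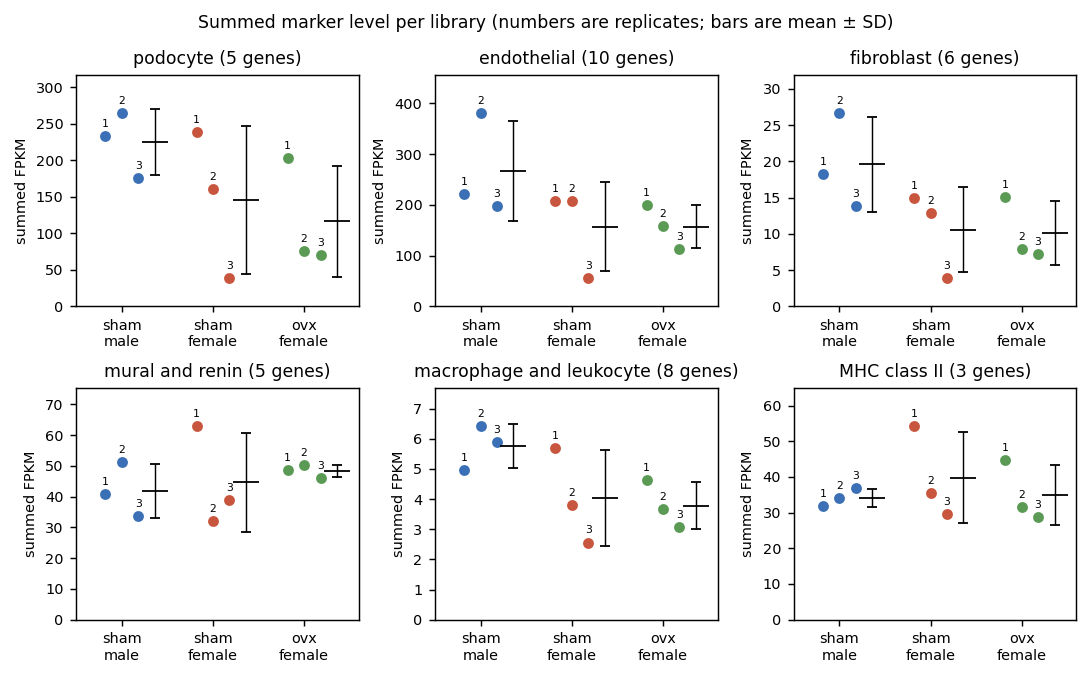
Summed FPKM of the markers of each role in each library, with 1 point per library labelled by its replicate number and bars for the mean ± SD over 3 libraries. Podocyte, endothelial and fibroblast sums are 38.3, 56.2 and 3.89 in sham female 3, whereas the mural and MHC class II sums of that library are 39 and 29.7, within the range of the others.

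Endothelial genes had lower single levels than Podxl, and their 10 members summed to 222, 381 and 198 among sham males, 208, 207 and 56.2 among sham females and 199, 159 and 114 among ovariectomized females in FPKM. Sham male 2 gave the highest sum and sham female 3 the lowest. Emcn encodes endomucin, a sialomucin of capillary and venous endothelium (ENSMUSG00000054690, chromosome 3, 137341067 to 137432185). It was at 49.1, 82.2 and 42.4 FPKM among sham males, 46.5, 43.8 and 10.9 among sham females and 45.7, 32.5 and 24 among ovariectomized females. Ehd3, a membrane-trafficking gene that in the kidney marks glomerular endothelium (ENSMUSG00000024065, chromosome 17, 73804134 to 73832094), was at 45.5, 85.6 and 35.5 FPKM among sham males, 35.6, 43.1 and 7.77 among sham females and 35.6, 30.2 and 18.8 among ovariectomized females and spanned 11-fold, the widest range of the 10 endothelial genes. Male library 2 stood above all others in both genes and sham female 3 below all others. The remaining libraries of the 3 groups overlapped.

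The receptor and junction genes had the same lowest and highest libraries at lower levels. Kdr, the gene of the main VEGF receptor, ranged over 6.65 to 54.2 FPKM (median 27.6), and Flt1, the gene of the VEGF receptor that also serves as a decoy, over 2.62 to 14.8 FPKM (median 7.71). Tek and Tie1, the genes of the angiopoietin receptor and its partner, ranged over 2.73 to 14.8 FPKM (median 8.94) and 2.34 to 14.3 FPKM (median 7.3). Eng, the gene of the TGF-beta co-receptor endoglin, ranged over 7.5 to 49.3 FPKM (median 29.5). The junction genes Pecam1 and Cdh5 ranged over 6.94 to 33.8 FPKM (median 17) and 3.1 to 19 FPKM (median 10.3). As ratios to Emcn over the 9 libraries, Eng spanned 1.2-fold, Kdr 1.28-fold, Ehd3 1.46-fold and Pecam1 1.83-fold.

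Plvap was the exception among the endothelial genes, and is named here after its values were seen. It encodes the protein of the diaphragms that span the pores of peritubular capillaries and that mature glomerular capillaries lack (ENSMUSG00000034845, chromosome 8, 71497765 to 71511752). Its level was 8.68, 12.7 and 6.88 FPKM among sham males, 12.4, 9.86 and 5.64 among sham females and 10.4, 8.24 and 7.78 among ovariectomized females. It spanned 2.25-fold over the libraries, and in sham female 3 it was at 5.64 FPKM where Ehd3 was at 7.77. The ratio of Ehd3 to Plvap was 5.24, 6.73 and 5.15 among sham males, 2.88, 4.38 and 1.38 among sham females and 3.42, 3.66 and 2.42 among ovariectomized females. This ratio was lowest in sham female 3 and highest in sham male 2, the libraries at the ends of the endothelial range. Plvap had log2 fold changes of -0.04 and -0.06 for the female groups against sham males, with intervals of -0.65 to 0.57 and -0.67 to 0.55. Both turned positive after median-ratio scaling or quantile normalization.

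**Figure D3:**
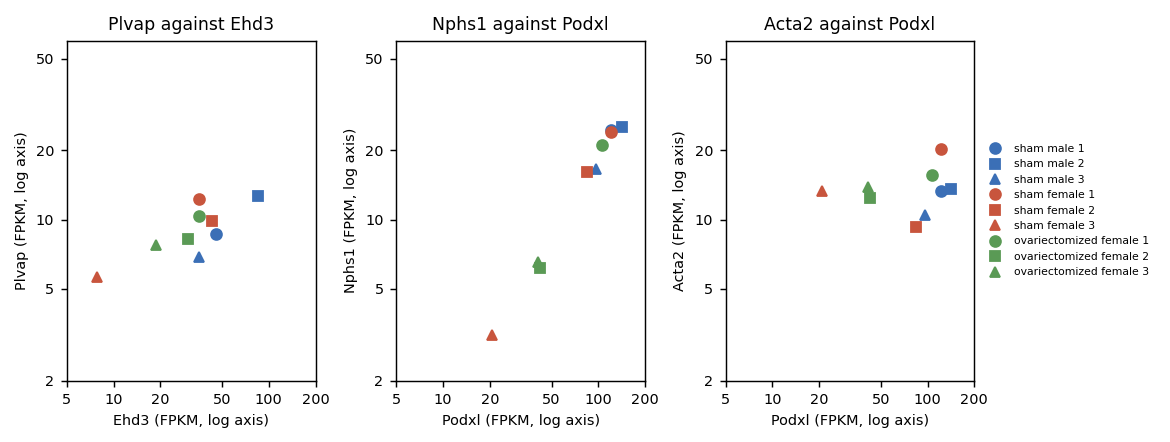
Levels of pairs of markers in the 9 libraries, both axes logarithmic and in FPKM, with 1 point per library, colour for the group and shape for the replicate. Nphs1 keeps near proportion to Podxl, Plvap spans 2.25-fold where Ehd3 spans 11-fold, and Acta2 is not low in the library with the lowest Podxl.

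Podocyte and endothelial genes were not in fixed proportion to each other. In ovariectomized female 2, Podxl was at 42.3 FPKM, close to ovariectomized female 3 at 41.2. Emcn was at 32.5 and 24 in the same libraries. The ratio of Nphs1 to Kdr was 0.769, 0.468 and 0.532 among sham males, 0.872, 0.586 and 0.477 among sham females and 0.797, 0.298 and 0.408 among ovariectomized females. It was thus highest in sham female 1 and lowest in ovariectomized female 2, a 2.92-fold range. The ratio of Podxl to Emcn ranged 2.01-fold. Both ranges exceed those of the ratios within the podocyte genes. They do not exceed those of all endothelial pairs, as Plvap to Emcn ranged 3.34-fold and Ehd3 to Plvap 4.89-fold.

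No endothelial gene was called. Emcn averaged 57.9 ± 21.3 FPKM in sham males, 33.7 ± 19.8 in sham females and 34.1 ± 10.9 in ovariectomized females (mean ± SD, 3 libraries each). The log2 fold change in sham females against sham males was -0.95 (95% interval -2.08 to 0.19, limma adjusted p = 0.262), and -0.29 without sham female 3. Without sham male 2 it was -0.67. Ovariectomized females were at -0.74 against sham males (-1.87 to 0.40) and at 0.21 against sham females (-0.93 to 1.34). These were -0.46 without sham male 2 and -0.44 without sham female 3, in that order. Ehd3 was at -1.12 in sham females against sham males (limma adjusted p = 0.245), and at -0.39 without sham female 3. Kdr came closest among them in sham females against sham males, at -1.08 (limma adjusted p = 0.183). In ovariectomized females against sham males Kdr was at -0.85 (limma adjusted p = 0.269), where the smallest adjusted p of the 10 genes was 0.208. The first Kdr value was -0.45 without sham female 3 and -0.83 without sham male 2. The second Kdr value was called in the fit without sham female 3 (adjusted p = 0.0483), a library that is not in that comparison but enters the shared estimate of spread. The 3 male libraries of Kdr, at 32, 54.2 and 31.3 FPKM, lay above all 6 female ones. Over the 10 endothelial genes the median log2 fold change was -0.82 and -0.66 for sham and ovariectomized females against sham males, and 0.20 for ovariectomized against sham females. Without sham female 3 the first was -0.29 and the last -0.41. Without sham male 2 the first was -0.57 and the second -0.39. Of a further 20 endothelial genes 17 were tested and 0 called in any comparison. Egfl7, an endothelial matrix gene, had the highest level of these, at 6.82 to 36.1 FPKM (median 18.1), and all 17 were highest in sham male 2.

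Stretches of DNA around the start of 2 endothelial genes are printed to show the letters behind a sequence feature that did not enter the choice of markers. ETS factors such as ERG and FLI1 are established regulators of endothelial genes, and their recognition core was searched as CAGGAA on both strands. RefSeq promoters (GRCm38.p6, 250 bases before to 50 after the start) were matched for 20 of the 37 markers, among them 7 of 10 endothelial genes. The core was found in 5 of these 7, in 4 of 5 matched macrophage and leukocyte genes and in 30.6% of 32817 promoters of all genes. A match is a description of the letters only. Each run reads 5′ to 3′ on the strand of the gene, and capitals mark the core, here met as its reverse complement TTCCTG.
Emcn, chr3:137340828-137341127, plus strand: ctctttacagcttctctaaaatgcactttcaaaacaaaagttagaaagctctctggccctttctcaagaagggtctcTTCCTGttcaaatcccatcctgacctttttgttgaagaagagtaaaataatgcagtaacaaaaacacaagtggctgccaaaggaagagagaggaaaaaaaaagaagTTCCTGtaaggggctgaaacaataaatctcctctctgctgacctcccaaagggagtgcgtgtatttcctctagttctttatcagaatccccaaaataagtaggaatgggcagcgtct
Tek, chr4:94739039-94739338, plus strand: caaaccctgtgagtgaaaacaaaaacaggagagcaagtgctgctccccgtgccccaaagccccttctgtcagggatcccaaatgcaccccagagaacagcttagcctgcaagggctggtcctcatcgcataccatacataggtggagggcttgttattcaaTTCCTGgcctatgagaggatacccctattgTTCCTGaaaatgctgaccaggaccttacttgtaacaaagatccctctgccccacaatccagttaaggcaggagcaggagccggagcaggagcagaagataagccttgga
In Emcn the core lay at bases -173 to -168 and -67 to -62 from the start, and in Tek at -89 to -84 and -59 to -54. Ehd3, Eng and Tie1 held 1 match each.

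Genes listed as fibroblast markers split by level, with 3 of 6 tested and 3 under the filter. Pdgfrb encodes the PDGF receptor of mesangial cells, pericytes and fibroblasts (ENSMUSG00000024620, chromosome 18, 61045150 to 61085061). It was at 8.43, 12.6 and 7.17 FPKM among sham males, 7.6, 6.52 and 2.02 among sham females and 7.08, 4.01 and 4.12 among ovariectomized females. Col1a2, the gene of the alpha-2 chain of type I collagen (ENSMUSG00000029661, chromosome 6, 4504814 to 4541544), was at 5.34, 7.13 and 3.52 FPKM among sham males, 4.52, 3.47 and 0.94 among sham females and 4.95, 1.84 and 1.45 among ovariectomized females. Both were lowest in sham female 3 and highest in sham male 2, as the endothelial genes were. Pdgfra, the gene of the PDGF receptor of stromal cells, ranged over 0.39 to 5.86 FPKM (median 2.32). The ratio of Pdgfrb to Emcn spanned 1.5-fold over the libraries, and that of Pdgfrb to the smooth muscle gene Acta2 6.07-fold. The log2 fold change of Pdgfrb was -0.81 in sham females and -0.78 in ovariectomized females against males (limma adjusted p = 0.217 and 0.216). That of Col1a2 was -0.76 and -0.83 (limma adjusted p = 0.299 and 0.248). Without sham female 3 the sham female values were -0.34 for Pdgfrb and -0.31 for Col1a2.

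The other 3 genes of this role were under the filter. Col1a1, whose alpha-1 chain outnumbers alpha-2 in the type I collagen molecule, ranged over 0.01 to 0.16 FPKM (median 0.05). Col3a1, the gene of type III collagen, ranged over 0.13 to 0.45 FPKM (median 0.19), and Dcn, the gene of the matrix proteoglycan decorin, over 0.13 to 0.64 FPKM (median 0.29). Their levels were thus below those of Col1a2 in all 9 libraries. Of 15 further stromal and matrix genes 6 were tested and 0 called in any comparison. Sparc, a matrix protein gene of endothelium, podocytes and stroma, was highest at 21 to 94 FPKM (median 58.9), while the fibroblast genes Lum and Postn, chosen after their values were seen, reached at most 0.03 and 0.16 FPKM.

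Pdgfra had the smallest adjusted p of all 29 tested markers. It averaged 4.04 ± 1.68 FPKM in sham males, 1.68 ± 1.12 in sham females and 1.7 ± 0.62 in ovariectomized females. Its log2 fold change was -0.97 in sham females (95% interval -1.80 to -0.13, limma adjusted p = 0.135) and -0.87 in ovariectomized females (-1.70 to -0.04, 0.157). The 3 male libraries lay above all 6 female libraries. Without sham female 3 the first value was -0.55 (limma adjusted p = 0.313), and without sham male 2 it was -0.72. The gene did not pass the threshold.

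**Figure D4:**
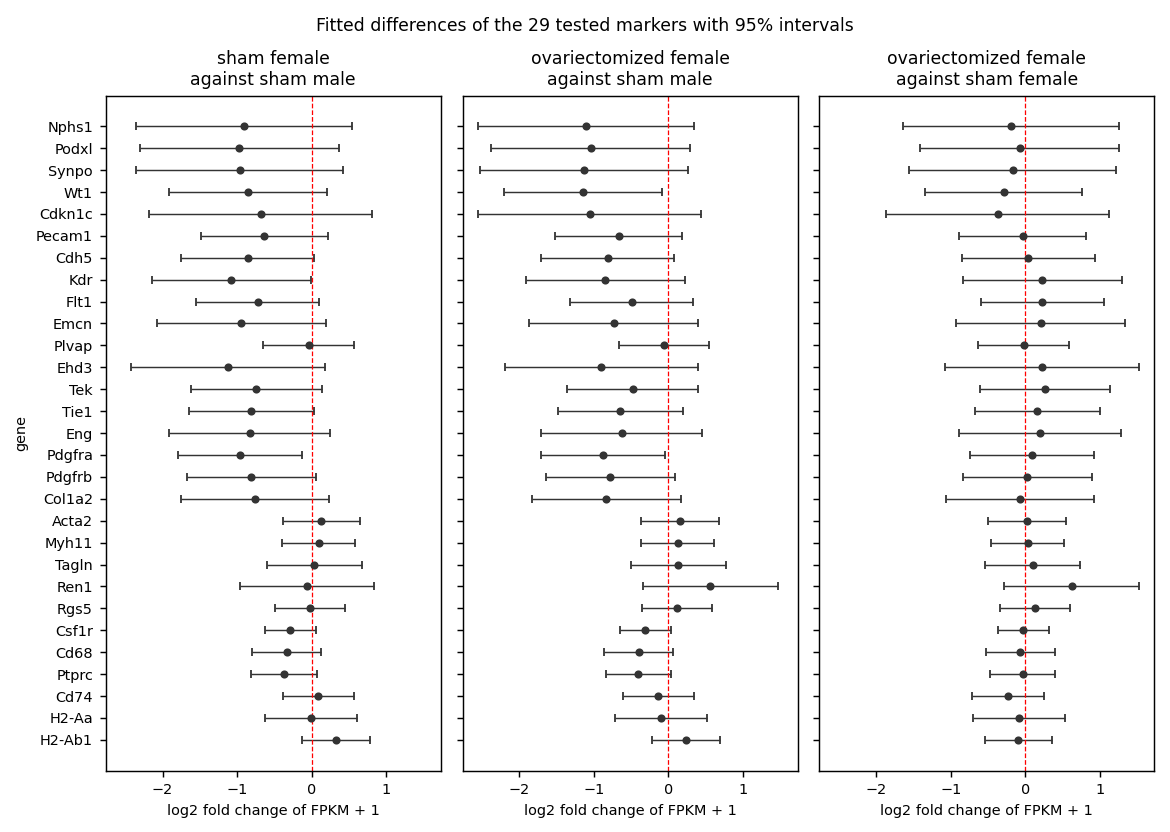
Fitted log2 fold change of log2(FPKM + 1) for the 29 tested markers (points) with 95% intervals (bars) in the 3 comparisons, on a common axis. Against sham males the points of podocyte and endothelial genes lie below 0 with wide intervals, nearly all of which reach past 0, those of smooth muscle and MHC class II genes lie nearer 0, and no gene was called after adjustment.

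The 5 mural markers were not at their lowest in sham female 3, the library where the glomerular genes were lowest. Acta2 encodes smooth muscle actin (ENSMUSG00000035783, chromosome 19, 34241090 to 34255590). It was at 13.4, 13.7 and 10.5 FPKM among sham males, 20.4, 9.34 and 13.3 among sham females and 15.7, 12.5 and 13.9 among ovariectomized females. Tagln, the gene of the actin-binding protein transgelin (ENSMUSG00000032085, chromosome 9, 45929619 to 45936058), was at 9.71, 16.6 and 8.98 FPKM among sham males, 18.5, 8.66 and 9.8 among sham females and 14, 11.3 and 12.5 among ovariectomized females. Sham female 1 was the highest library for both and sham female 2 the lowest, and the 3 groups overlapped. Sham female 3 was not set apart in either gene.

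Myh11, the smooth muscle myosin heavy chain gene, ranged over 3.71 to 8.22 FPKM (median 5.59) and kept a close proportion to Acta2, a ratio that spanned 1.11-fold over the libraries. Rgs5, a G protein regulator gene of pericytes and arteriolar muscle, ranged over 6.98 to 12.6 FPKM (median 9.15). The ratio of Acta2 to Podxl was 0.11, 0.0966 and 0.108 among sham males, 0.168, 0.111 and 0.641 among sham females and 0.148, 0.295 and 0.336 among ovariectomized females. It was highest in sham female 3 and spanned 6.64-fold in all. Log2 fold changes of Acta2 were 0.13, 0.15 and 0.02 in sham females against males, ovariectomized females against males and ovariectomized against sham females, with intervals of -0.39 to 0.65, -0.36 to 0.67 and -0.49 to 0.54. None of the 5 genes of this role was called.

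The start of Acta2 is shown because serum response factor is known to drive smooth muscle genes through CArG boxes. It was searched for a CArG-like box, written as CC and GG around 6 bases of which at least 5 are A or T, a form that covers both strands. The 2 matches lay at bases -84 to -75 and -34 to -25 and are in capitals. Such a box was held by 7 of the 20 matched markers, in 5 cases outside the mural role, and by 9.99% of 32817 promoters.
Acta2, chr19:34255324-34255623, minus strand: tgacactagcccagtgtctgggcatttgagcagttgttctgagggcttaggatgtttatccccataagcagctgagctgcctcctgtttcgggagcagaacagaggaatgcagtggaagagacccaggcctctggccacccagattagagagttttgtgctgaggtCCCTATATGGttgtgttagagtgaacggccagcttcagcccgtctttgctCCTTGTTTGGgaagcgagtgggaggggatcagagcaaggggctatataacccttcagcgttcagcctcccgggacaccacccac

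Ren1 behaved unlike the other mural genes, and is described after its values were seen. It encodes renin, the protease that starts the angiotensin cascade (ENSMUSG00000070645, chromosome 1, 133350510 to 133360325). Its level was 2.83, 4.88 and 2.56 FPKM among sham males, 3.12, 3.32 and 2.96 among sham females and 2.31, 11.3 and 5.33 among ovariectomized females. Ovariectomized female 2 stood at 11.3 FPKM, and the other 8 libraries lay between 2.31 and 5.33. The log2 fold change in ovariectomized against sham females was 0.62 (95% interval -0.28 to 1.53, limma adjusted p = 0.937) and 0.15 without that library. The other renin-lineage gene measured, Akr1b7, was at 0.52 FPKM in the same library and at 0.52 to 1.45 over all 9.

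A further list of mural and mesangial genes was low in sham female 3 for most of its genes. Of its 13 genes 11 were tested and 0 called in any comparison of the fit reported here. After quantile normalization 1 was called higher in sham females and 1 in ovariectomized females than in males (limma adjusted p = 0.045 and 0.0399). Itga8, the gene of a mesangial integrin, ranged over 2.96 to 30.9 FPKM (median 12.5), and Des, the desmin gene, over 1.47 to 14 FPKM (median 5.39). Mylk, the gene of myosin light chain kinase and the highest of the list, ranged over 11.4 to 27.3 FPKM (median 17.2). The pericyte gene Cspg4 ranged over 6.6 to 8.87 FPKM (median 7.68). Sham female 3 was the lowest library for 7 of the 11 tested genes, among them Itga8, Des and Mylk, and not for Cspg4. Except for Mylk these were named after their values were seen.

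Macrophage genes were close to the detection limit. C1qa, C1qb and C1qc encode the chains of C1q, the first component of complement, which tissue macrophages make in quantity. They ranged over 0.05 to 0.46 FPKM (median 0.23), 0.05 to 0.53 FPKM (median 0.17) and 0.04 to 0.2 FPKM (median 0.14). Adgre1, the gene of the macrophage antigen F4/80, ranged over 0.05 to 0.41 FPKM (median 0.19), and Cx3cr1, a chemokine receptor gene of resident macrophages, over 0.04 to 0.32 FPKM (median 0.1). None of these 5 genes reached 1 FPKM in any library, and none was tested.

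The other 3 leukocyte genes were low but tested. Csf1r, the gene of the growth factor receptor of macrophages (ENSMUSG00000024621, chromosome 18, 61100598 to 61132149), was at 2.07, 2.76 and 2.45 FPKM among sham males, 2.18, 1.84 and 1.45 among sham females and 2.1, 1.82 and 1.4 among ovariectomized females. Ptprc, the gene of the pan-leukocyte antigen CD45 (ENSMUSG00000026395, chromosome 1, 138062861 to 138175708), was at 1.15, 1.34 and 1.22 FPKM among sham males, 1.1, 0.89 and 0.31 among sham females and 0.99, 0.56 and 0.56 among ovariectomized females. Cd68, a lysosomal protein gene, ranged over 0.31 to 1.19 FPKM (median 0.62). Ptprc was lowest in sham female 3, and its 3 male libraries lay above all 6 female ones. The Ptprc log2 fold change was -0.37 in sham females and -0.40 in ovariectomized females against males (limma adjusted p = 0.258 and 0.208). Csf1r was at -0.28 and -0.31 (limma adjusted p = 0.26 and 0.21), and its groups overlapped. Without sham female 3 the sham female values were -0.17 for Ptprc and -0.18 for Csf1r. At these levels the added 1 FPKM shrinks a fold change.

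In a further list of 18 macrophage genes 8 were tested, and 1 was called higher in each female group than in males. Of all genes tested, 9.15% were called in sham females and 11.8% in ovariectomized females against males. The called gene of the list was Apoe, the apolipoprotein E gene, which many cell types express, at 534, 261 and 436 FPKM among sham males, 773, 851 and 823 among sham females and 1442, 1426 and 1566 among ovariectomized females. Its log2 fold changes were 1.05 and 1.91 (limma adjusted p = 0.0166 and 0.000472). The next in level was the lysozyme gene Lyz2, named after its values were seen, at 1.42 to 8.12 FPKM (median 5.07). Of 15 lymphocyte and neutrophil genes none passed the filter, and the highest single value was 1.97 FPKM, for S100a9 in ovariectomized female 1.

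MHC class II genes were present, each above Csf1r, Cd68 and Ptprc in all 9 libraries. These molecules show peptides to helper T cells, and Cd74 encodes the invariant chain that guides them through the cell (ENSMUSG00000024610, chromosome 18, 60803848 to 60812652). Cd74 was at 16.4, 15.3 and 18.6 FPKM among sham males, 25.5, 15.6 and 14.3 among sham females and 18.9, 14.5 and 12.5 among ovariectomized females. H2-Ab1, the gene of the beta chain of the class II molecule of this strain (ENSMUSG00000073421, chromosome 17, 34257689 to 34269419), was at 10.4, 12.9 and 13 FPKM among sham males, 20.4, 14.6 and 12.1 among sham females and 18.6, 12.8 and 12.3 among ovariectomized females. Its alpha chain gene H2-Aa ranged over 3.32 to 8.3 FPKM (median 5.25). All 3 were highest in sham female 1, and the groups overlapped.

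Class II genes did not keep a fixed proportion to the leukocyte genes in the ratios computed. The ratio of H2-Ab1 to Csf1r was 5.02, 4.66 and 5.3 among sham males, 9.34, 7.94 and 8.35 among sham females and 8.85, 7.04 and 8.78 among ovariectomized females, higher in all 6 female libraries than in all 3 male ones. It was chosen with its values known, and ratios of Cd74 and H2-Aa to Csf1r were not computed for every library. The split did not extend to H2-Aa. H2-Aa and Csf1r were at 4.97 and 2.07 FPKM in sham male 1. In sham female 3 they were at 3.32 and 1.45 FPKM, a lower ratio. Of all single genes tested, 30.3% did not overlap between sham females and males and 34.1% between ovariectomized females and males. These shares are for single genes and give no background for a chosen ratio. The ratio of Cd74 to Ptprc ranged 4.04-fold and was highest in sham female 3, at 46.1. Ptprc was at only 0.31 FPKM in that library, and the next highest ratio was 25.8, in ovariectomized female 2. The log2 fold change of H2-Ab1 was 0.33 in sham females and 0.23 in ovariectomized females against males, with intervals of -0.12 to 0.78 and -0.22 to 0.69 and limma adjusted p of 0.323 and 0.468. Without replicate 1 of the female group they were 0.14 and 0.06. Cd74 was at 0.09 and -0.14 (limma adjusted p = 0.813 and 0.697). Of 11 further class II and dendritic genes 3 were tested and 0 called in any comparison of the fit reported here. After median-ratio scaling 1 was called higher in sham females and 1 in ovariectomized females than in males (limma adjusted p = 0.0404 and 0.0311). After quantile normalization the counts were the same (limma adjusted p = 0.0239 and 0.0208). The 3 tested genes were H2-DMb1, the highest in level at 7.86 to 13.6 FPKM (median 12), H2-Eb1 at 5.3 to 10.0 FPKM (median 7.04) and H2-DMa at 2.27 to 4.08 FPKM (median 3.35). Ciita, the master regulator gene of class II transcription, ranged over 0.24 to 0.53 FPKM (median 0.39), and the dendritic genes Flt3 and Xcr1 reached at most 0.1 and 0.02 FPKM. The last 5 were named after their values were seen.

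The start of H2-Aa is printed because class II genes share the X and Y boxes, through which the regulator CIITA is recruited. The X2 box was searched as TGACGTCA and the Y box as CTGATTGG, both on both strands, and both are in capitals. The X2 letters lay at bases -74 to -67 and the Y letters at -51 to -44. Of 32817 promoters 1.79% held the first and 4.09% the second, and among the matched markers Flt1 also held the first and Rgs5 the second.
H2-Aa, chr17:34287774-34288073, minus strand: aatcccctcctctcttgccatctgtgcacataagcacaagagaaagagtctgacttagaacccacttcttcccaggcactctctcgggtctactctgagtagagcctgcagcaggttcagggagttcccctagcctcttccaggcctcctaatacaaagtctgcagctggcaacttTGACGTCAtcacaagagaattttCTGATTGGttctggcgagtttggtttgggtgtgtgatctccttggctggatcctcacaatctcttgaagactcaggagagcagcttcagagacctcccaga

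The spread between replicate libraries was wide for most markers, and 21 of the 29 tested had a spread above that of 90% of all genes tested. The within-group SD of log2(FPKM + 1) had a median of 0.15 over all 13160 genes tested. It ran from 0.699 to 0.998 in the 5 podocyte genes and from 0.40 to 0.87 in the 10 endothelial genes, where the smallest was that of Plvap. The 5 podocyte genes exceeded 98.5% to 99.5% of all genes tested. Among the mural genes Ren1 was at 0.59 and the other 4 between 0.30 and 0.41. The 3 class II genes ran from 0.29 to 0.40, and the 3 tested leukocyte genes, where low levels shrink the scale, from 0.18 to 0.26. These are descriptions over 9 libraries.

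**Figure D5:**
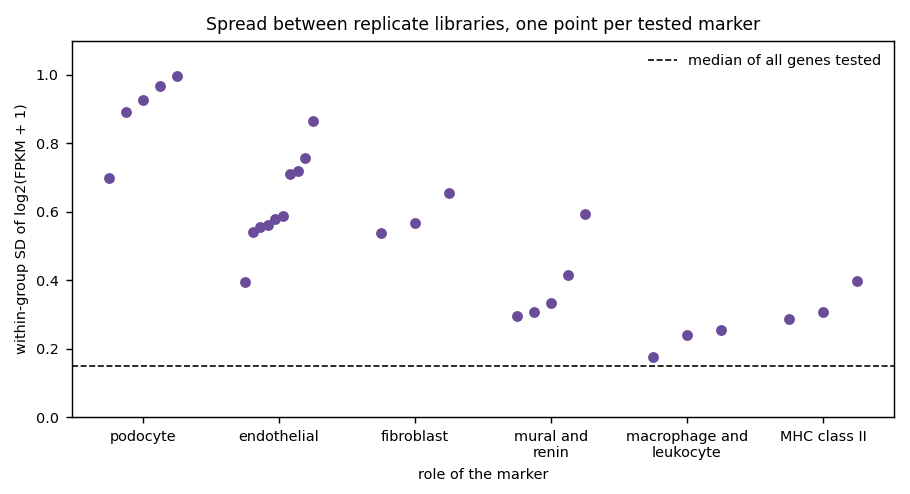
Within-group SD of log2(FPKM + 1) of each tested marker (1 point per gene) by role, pooled over the 3 groups, with a dashed line at the median of all genes tested. All 29 points lie above the line at 0.15, with podocyte genes at 0.699 to 0.998, endothelial genes at 0.40 to 0.87 and leukocyte genes at 0.18 to 0.26.

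Library order was counted next. Libraries of the 2 groups did not overlap in 4 of 29 tested markers for sham females against sham males, where 30.3% of all genes tested had this property. For ovariectomized females against sham males there were 8 of 29, against 34.1%, and for ovariectomized against sham females 0 of 29, against 12.9%. The 4 markers of the first comparison were Cdh5, Kdr, Pdgfra and Ptprc, all higher in males. The 8 of the second were Cd68, Cdh5, Kdr, Pdgfra, Pdgfrb, Pecam1, Ptprc and Wt1, again all higher in males. These comparisons share the male libraries.

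Other cells in the fraction did not all follow the glomerular genes. Of 9 thick ascending limb genes 1 was called higher and 4 lower in sham females than in sham males, where 9.15% of all genes were called. Of 8 distal convoluted tubule genes 5 were lower, or 4 after median-ratio scaling or with a pseudocount of 0.1. Of 14 collecting duct genes 13 were tested and 7 were lower, or 6 with that pseudocount. In ovariectomized females against males, where 11.8% of all genes were called, the counts were 1 higher in the first list, or 0 after quantile normalization, 2 lower in the second, or 0 after median-ratio scaling, and 4 lower in the third. With the replicate block they were 0 in the first, 1 in the second and 4 in the third. No gene of these 3 lists was called in ovariectomized against sham females. The thiazide-sensitive transporter gene Slc12a3 was at 457, 569.8 and 619 FPKM among sham males, 355, 167 and 204 among sham females and 357, 227 and 353 among ovariectomized females. Its lowest library was sham female 2, which held Podxl at 84.1, whereas in sham female 3 Slc12a3 was at 204 and Podxl at 20.8. Among the 12 proximal tubule genes 7 were called higher in sham females and 6 in ovariectomized females than in males, with none called lower. Both counts include Prom1, the gene of the protein used to hold the cells. The first count was 6 after quantile normalization or with the replicate block, and the second was 5 with the block. The endocytic receptor gene Lrp2 was at 167, 122 and 152 FPKM among sham males, 192, 229.8 and 258 among sham females and 172, 233 and 199 among ovariectomized females. The part of these shifts in the marker levels was not tested.

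Red cell and parietal epithelial genes were also examined, and in neither list did all tested genes share the same lowest library. The beta-globin gene Hbb-bs, highest of a list of 7 red cell genes, was at 35.5, 19.8 and 16.8 FPKM among sham males, 4.16, 36.6 and 1.11 among sham females and 40.0, 9.15 and 3.08 among ovariectomized females. It was low in sham female 1, where Emcn was at 46.5, as well as in sham female 3. Of that list 5 genes were tested and 0 called. Globin reads can be divided among near-identical copies. Of 8 parietal epithelial genes 6 were tested. The simple-epithelium keratin genes Krt8 and Krt18, 2 of these, were called lower in both female groups than in males, where 9.15% and 11.8% of all genes were called. In ovariectomized females only 1 was called after either scaling, with a pseudocount of 0.1 or with the replicate block. Krt8 was at log2 fold changes of -0.50 in sham and -0.59 in ovariectomized females (limma adjusted p = 0.00384 and 0.00116). Cd24a had the highest level of that list, at 32.2 to 106 FPKM (median 61.7).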

How the data were processed

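RNA from prominin-1-positive kidney cortex cells was sequenced in 9 strand-specific libraries, per the labels' protocols. The deposited table gives FPKM per gene and library, made by the authors with STAR 2.6.0c and RSEM as the submitters' processing notes list them. No RSEM version, build or annotation is given in the sources used here. Of 52405 IDs, 52147 were found in GENCODE M21 (GRCm38), which supplied positions. The 4 unnamed side columns were not used.

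Values were used as deposited. Genes at 1 FPKM or more in at least 3 libraries (13160) were fitted as log2(FPKM + 1) with limma 3.58.1 in R 4.3.3, with 1 mean per group over all 9 libraries and a trended variance. Fold changes are on that scale, which understates changes of low genes. Tests were two-sided, adjusted by Benjamini-Hochberg over all genes and called under 0.05. The fit was tested on simulated data. The table holds no counts. Depth was estimated from steps between low values of short single-transcript genes, and no counting intervals were computed. No label says that the replicates came from separate animals, so p-values measure the spread between these libraries.

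Same-numbered sham and ovariectomized females deviated together from their group means, with correlations of 0.35, 0.17 and 0.29 over all genes tested, so the numbers may pair these groups. With males the same-numbered values were -0.125, 0.145 and 0.28 for sham females and -0.0299, 0.0164 and 0.0749 for ovariectomized females. The differently numbered sham male 2 and sham female 1 also reached 0.282. The pairing comes from the data alone. The block changed no marker call between the female groups.

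The markers and 13 further gene lists were chosen with earlier results of these data known. Values per library are given for called markers and, in each role, for the 2 of highest mean. Genes of the other lists are named where called, up to 3, or highest in level, and any other gene, and each ratio of 2 genes, was chosen with its values known. The values of 1 listed gene are not reported here. Alternatives were another pseudocount, 2 other filters, 2 scalings, 2-group fits, a replicate block and leaving out each library. Figures were drawn with matplotlib 3.10.9 in Python 3.11.15.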

Additional observations from a re-analysis of the deposited data

How the results depend on the processing

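The count of 0 called markers held in all 3 comparisons with a pseudocount of 0.1, with a filter of 5 FPKM, after median-ratio scaling, after quantile normalization and in fits of only the 2 groups compared. Exceptions were few. With the replicate block 1 of 29 markers was called in sham females and 1 in ovariectomized females against sham males, Pdgfra both times (limma adjusted p = 0.0361 and 0.0412). Of all 13160 genes tested, 1110 and 1524 were called in the same fits. No label pairs the libraries of these comparisons by number, and their same-numbered correlations over all genes tested ran from -0.125 to 0.28. Many markers nevertheless shared an order by replicate number. Replicate 3 was lowest within sham males, sham females and ovariectomized females for 8, 10 and 10 of 10 endothelial genes. For the 5 podocyte genes the counts were 5, 5 and 3, and for the 5 mural genes 5, 1 and 1. What the replicate number stands for was not tested. In sham females against males the block also took genes called lower in the thick ascending limb list from 4 to 1. It took those of the distal convoluted tubule list from 5 to 2 and of the collecting duct list from 7 to 5. In ovariectomized females against males it added 1 gene called lower in each of the further podocyte, stromal and matrix, and macrophage lists. Markers at an unadjusted limma p under 0.05 went from 2 to 13 of 29 in both comparisons with males. Over all 13160 genes tested that count went from 3506 to 3765 in sham females and from 3770 to 4030 in ovariectomized females. Without a filter 1 of 37 markers, Cx3cr1, was called in ovariectomized females against sham males, where 1127 of all 29075 genes were called. Leaving out single libraries gave 0 to 1 called markers in that comparison and 0 in the others. The 1 was Kdr without sham female 3, a fit that called 1560 of all 13160 genes.

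Of 620 marker fold changes under alternatives other than leaving out a library, 11 had the opposite sign to the reported value, and none of these was called. Of 783 with a library left out, 81 had the opposite sign, 60 of them in ovariectomized against sham females, and 1 was called, Kdr as above.

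Counts over all genes moved more. The 1204 genes called in sham females against males became 739 without a filter and 722 in the 2-group fit, and 570 to 1635 with a library left out, moving by over 1.5 times without sham male 2 or 3 (645 and 643) or sham female 2 or 3 (570 and 735). The 1555 in ovariectomized females against males became 877 to 1698, moving as far without sham male 2 or 3 (1006 and 932) or any 1 ovariectomized library (1022, 877 and 899). The 1 gene called between the female groups became 2 without a filter, 0 after median-ratio scaling, after quantile normalization and with the replicate block, 9 in the 2-group fit and 0 to 11 with a library left out. In a 2-group fit with the replicate block, chosen after seeing the data, it became 6. The causes were not tested, beyond that fits with fewer libraries have fewer degrees of freedom. Without counts, the lowest markers have an unknown counting error.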
